A study of Mus musculus with 36 samples.

Results

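The genes described are those of major histocompatibility complex (MHC) class II presentation and their transactivator: Ciita, H2-Aa, H2-Ab1, H2-Eb1, H2-DMa and Cd74, taken by symbol from the annotation of the bead array. They are 6 of the 16593 gene symbols on the array and carry 10 of its 25697 probes: 4 for H2-Ab1, 2 for Cd74 and 1 for each of the others. In the study, Balb/c mice received 177Lu-octreotate, an analogue of somatostatin that carries a beta-emitting lutetium isotope, and 24 h later total RNA was taken from the cortex and the medulla of the kidney. The injected activities were 1.3, 3.6, 14, 45 and 140 MBq, with a group at 0 MBq as the control, and each of the 12 groups of tissue and activity held 3 arrays. The labels state neither the age nor the sex of the mice, nor what the 0 MBq mice received. Whether the 3 arrays of a group stand for 3 mice is not given in the labels, so a p-value reflects the spread between these samples only, which may be technical. In whole tissue, fewer cells of a type and less RNA per cell cannot be told apart.

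Ciita, the gene of the transactivator that switches on the class II genes, had its highest group mean in untreated kidney and a lower mean at each injected activity of 177Lu-octreotate, in cortex and in medulla. It passed the test at 14, 45 and 140 MBq in each tissue, with log2 changes of -2.78 and -2.82 in cortex at 14 and 140 MBq and of -2.54 and -2.39 in medulla at 45 and 140 MBq, and it was not detected on any array in cortex at 45 MBq or in medulla at 14 MBq. H2-Eb1, which encodes a class II beta chain, passed in medulla at 14 and 45 MBq. H2-Ab1, H2-Aa, H2-DMa and Cd74 passed in no comparison with 0 MBq. None of these calls was kept when untreated replicate 1, the array with the highest Ciita signal in each tissue, was left out. Each call also ended without untreated replicate 2, or without any single array of the injected group.

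Array medians of the signal ran from 112 to 225, and 12152 to 13319 probes per array were detected. No pair of arrays held identical signals. Markers of nephron segments were present in both tissues: Slc34a1, the phosphate transporter of the proximal tubule, and Umod, made by the thick ascending limb, were detected on 36 of 36 arrays, and so were the collecting duct genes Aqp2, Aqp3 and Scnn1g. The mean log2 signal in cortex and medulla was 9.87 and 10.87 for Aqp2 and 10.43 and 10.96 for Aqp3. Scnn1g went the other way, with 10.99 and 10.50. Proximal tubule markers also differed in direction. Those higher in cortex were Slc34a1 (14.96 and 14.80), Slc5a2 (9.92 and 9.28) and Slc22a6 (12.71 and 12.11). Those higher in medulla were Aqp1 (13.67 and 14.14), Lrp2 (6.04 and 6.36) and Slc27a2 (14.44 and 14.59). Some arrays stood apart. Untreated replicate 1 had the lowest array median of either tissue (112 in cortex, 123 in medulla) and in each tissue also ranked last of 18 arrays in the mean of 6 proximal tubule markers (-0.93 in both tissues, on a log2 scale centred on each gene's mean over 36 arrays). At 14 MBq, replicate 3 had a mean of 3 adrenal markers of 6.28 in cortex and 5.65 in medulla, where no other array was above 1.09. Calls of the 6 genes and of the gene lists against 0 MBq are given with and without these arrays.

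MHC class II molecules are pairs of an alpha and a beta chain that display peptides on the cell surface to CD4+ T cells. H2-Aa and H2-Ab1 encode the chains of the mouse I-A molecule, and H2-Eb1 the beta chain of I-E. Cd74 encodes the invariant chain, which holds new class II molecules and guides them to the endosome. H2-DMa encodes a chain of the H2-DM molecule, which helps to exchange the remnant of the invariant chain for a peptide. Ciita binds no DNA itself but docks on the RFX and NF-Y proteins bound to the X and Y boxes of class II promoters, and interferon gamma induces it. In kidney, class II is known mainly from dendritic cells and macrophages, and tubule cells can acquire it after exposure to interferon gamma.

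Promoter sequences are shown for H2-Aa and H2-Eb1 because the X and Y boxes through which Ciita acts lie there. The RefSeq table of GRCm38.p6 gave 300-base windows for 3 of the 6 genes that could be used here, with 2 windows for H2-DMa. The stretches below are the 130 bases before the annotated start, on the strand of the gene. That of H2-Aa is chr17:34287824-34287953 (minus strand) and that of H2-Eb1 is chr17:34305737-34305866 (plus strand). Capitals mark letters of the Y box core (CCAAT, or ATTGG on the other strand), of the X1 box (AGCAAC, or GTTGCT, and its shorter form GCAAC, or GTTGC, which AGCAAC contains) and of the X2 box (TGACGTCA, the same on both strands). The shorter form and TGACGTCA were added after the sequences had been read.
H2-Aa: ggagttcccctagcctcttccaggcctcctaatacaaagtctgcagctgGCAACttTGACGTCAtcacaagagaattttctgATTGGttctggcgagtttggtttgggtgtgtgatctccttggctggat
H2-Eb1: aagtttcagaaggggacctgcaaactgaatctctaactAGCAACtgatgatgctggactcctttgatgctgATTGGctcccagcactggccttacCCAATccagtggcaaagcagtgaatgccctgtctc
In H2-Aa, GCAAC starts 81 bases before the start and ATTGG 48 bases before it, with 28 bases between them, and TGACGTCA lies in that gap. In H2-Eb1, AGCAAC starts 92 bases and ATTGG 59 bases before the start, with 27 bases between GCAAC and ATTGG, and CCAAT follows at 35 bases. In the 130 bases before the start of 32841 complete windows, the Y box core occurred in 22.4%, AGCAAC in 6.85%, GCAAC in 17.3% and TGACGTCA in 1.3%, on either strand, and in the whole 300 bases in 37.4%, 14.8%, 35.2% and 1.79%. GCAAC followed by ATTGG at a distance of 27 to 28 bases, a spacing read from these 2 promoters, occurred in 48 windows (0.15%) of 44 genes, which included H2-Eb2 and H2-Oa beside H2-Aa and H2-Eb1. That share describes a pattern defined on these genes and tests nothing. The H2-DMa windows held GTTGC 7 bases before the start in the one and ATTGG 198 bases before it in the other. A match describes these letters in the window and was not tested as a site of binding.

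Ciita, the transactivator, was near the detection limit of its probe in treated kidney. It was detected, with a detection p under 0.05 against negative control beads, on 8 of 18 cortex arrays and 9 of 18 medulla arrays, and on all 3 untreated arrays of each tissue. In untreated cortex its log2 signal was 9.53, 8.51 and 7.23 on replicates 1, 2 and 3, and in untreated medulla 9.45, 8.03 and 6.60. The 3 untreated arrays thus spanned 2.29 in cortex and 2.84 in medulla, in the same order in both tissues. At 1.3 MBq the signal was 7.70, 5.53 and 5.77 in cortex and 6.97, 5.80 and 5.54 in medulla, and at 3.6 MBq it was 5.36, 7.15 and 5.81 in cortex and 5.61, 6.84 and 5.40 in medulla. In each of these groups a single array, replicate 1 at 1.3 MBq and replicate 2 at 3.6 MBq, lay well above the other 2 in both tissues. At 14 MBq it was 5.03, 6.53 and 5.36 in cortex and 5.40, 5.52 and 5.62 in medulla. At 45 MBq it was 5.22, 5.28 and 5.17 in cortex, with no array detected, and 5.95, 4.96 and 5.54 in medulla. At 140 MBq it was 5.89, 4.99 and 5.94 in cortex and 5.79, 5.73 and 5.39 in medulla. Of 15 treated arrays, 14 in cortex and 13 in medulla lay below the lowest untreated array, and the exceptions were replicate 1 at 1.3 MBq in both tissues and replicate 2 at 3.6 MBq in medulla.

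**Figure D1:**
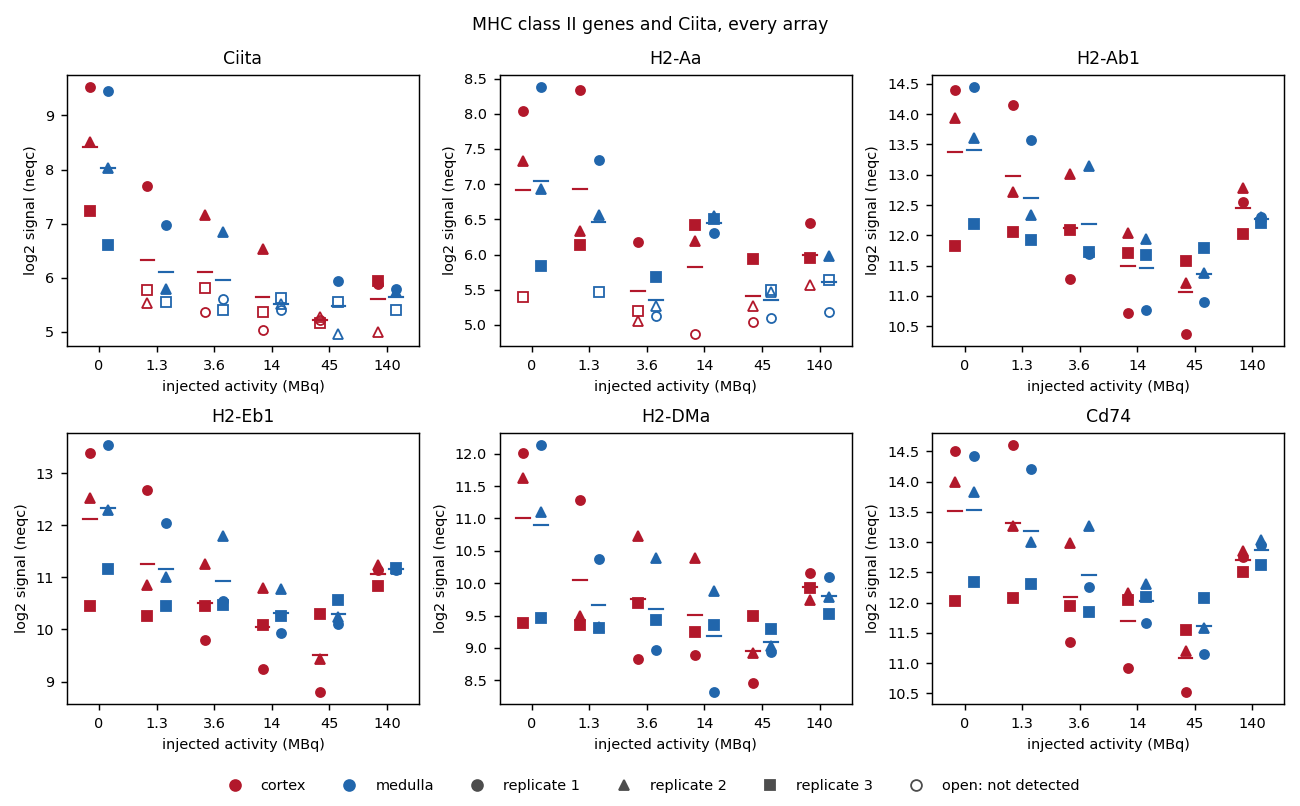
The log2 signal (vertical axes) of each of the 6 genes on each of the 36 arrays, by injected activity in MBq (horizontal axes), with cortex in red and medulla in blue. Circles, triangles and squares are replicates 1, 2 and 3, open symbols are arrays on which the probe was not detected, and short lines are group means: untreated replicate 1 is the highest or next to the highest array of each tissue in every panel, and untreated replicate 3 lies in the middle of the injected arrays for all genes but Ciita, where it ranks the 4th highest of 18 arrays in cortex and the 5th in medulla.

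Cd74, the invariant chain, was detected on 36 of 36 arrays. Its log2 signal on untreated replicates 1, 2 and 3 was 14.51, 13.99 and 12.03 in cortex and 14.42, 13.83 and 12.33 in medulla. At 1.3 MBq it was 14.60, 13.27 and 12.08 in cortex and 14.21, 13.004 and 12.31 in medulla. These groups overlapped almost completely. The lowest values came at 45 MBq, with 10.52, 11.20 and 11.55 in cortex and 11.15, 11.59 and 12.08 in medulla, and all 3 arrays of that group lay below all 3 untreated arrays in both tissues. At 140 MBq the signal was 12.75, 12.85 and 12.51 in cortex and 12.95, 13.03 and 12.61 in medulla, within the range of the untreated arrays. At 3.6 MBq it was 11.35, 12.98 and 11.94 in cortex and 12.25, 13.27 and 11.85 in medulla, and at 14 MBq 10.91, 12.15 and 12.05 in cortex and 11.66, 12.30 and 12.09 in medulla. Of 15 treated arrays only 6 in cortex and 9 in medulla lay below the lowest untreated array.

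H2-Eb1, the I-E beta chain, had a log2 signal of 13.39, 12.51 and 10.45 on the untreated arrays of cortex and of 13.54, 12.30 and 11.15 on those of medulla. In medulla the signal was 9.93, 10.78 and 10.26 at 14 MBq and 10.11, 10.24 and 10.57 at 45 MBq, and all 3 arrays of either group lay below all 3 untreated arrays. In cortex it was 9.25, 10.80 and 10.08 at 14 MBq and 8.80, 9.43 and 10.29 at 45 MBq. There the lowest untreated array, replicate 3, overlapped the 14 MBq group and lay above the 45 MBq group by a narrow gap. At 140 MBq it was 11.14, 11.23 and 10.82 in cortex and 11.14, 11.16 and 11.18 in medulla, in either tissue with less spread than among the untreated arrays.

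H2-Ab1, the I-A beta chain, read by its brightest probe, had a log2 signal of 14.40, 13.93 and 11.82 in untreated cortex and of 14.45, 13.60 and 12.19 in untreated medulla. It was 10.38, 11.22 and 11.58 in cortex and 10.90, 11.37 and 11.80 in medulla at 45 MBq, below all untreated arrays of the tissue, and 12.55, 12.78 and 12.02 and 12.30, 12.30 and 12.21 at 140 MBq, inside their range. H2-DMa, the peptide-editing chain, had 12.003, 11.63 and 9.38 in untreated cortex and 12.13, 11.11 and 9.46 in untreated medulla, and 8.46, 8.92 and 9.49 and 8.94, 9.03 and 9.30 at 45 MBq. The untreated arrays of both genes fell into 1 low array, replicate 3, and 2 high ones. H2-Aa, the I-A alpha chain, was detected on 21 of 36 arrays. It had 8.05, 7.33 and 5.39 in untreated cortex, the last not detected, and 8.38, 6.93 and 5.83 in untreated medulla. At 14 MBq it did not follow the other genes: its signal was 6.31, 6.55 and 6.50 in medulla, inside the range of the untreated arrays, and 4.88, 6.19 and 6.42 in cortex.

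For the comparison of each activity with 0 MBq, which asks how expression differed between injected and untreated mice, changes are log2 differences ± SE from limma, adjusted over all genes tested in the tissue (10803 in cortex, 10869 in medulla) and called at an adjusted p under 0.05. The 5 comparisons of a tissue share their 3 untreated arrays. In cortex, Ciita was called at 14 MBq (-2.78 ± 0.63, adjusted p = 0.0437), 45 MBq (adjusted p = 0.0272) and 140 MBq (-2.82 ± 0.63, adjusted p = 0.0476), detected on 1, 0 and 2 of the 3 injected arrays. At 45 MBq, where no array detected it, it was at least 6.28-fold lower than at 0 MBq, a bound on the neqc scale from the lowest detected signal of each array. In medulla, Ciita was called at 14 MBq, again undetected on all 3 arrays and at least 5.15-fold lower (adjusted p = 0.0224), at 45 MBq (-2.54 ± 0.55, 5.83-fold, adjusted p = 0.0279, 1 of 3 arrays detected) and at 140 MBq (-2.39 ± 0.55, 5.24-fold, adjusted p = 0.0405, 2 of 3 detected). These folds were smaller under other processing. The bounds hold only for the neqc values with all 3 untreated arrays, and were not computed without untreated replicate 1. With the deposited normalization Ciita was 2.69, 2.96 and 2.72-fold lower in cortex at 14, 45 and 140 MBq and 2.35, 2.39 and 2.29-fold lower in medulla, and without background correction 2.79 to 3.09-fold and 2.36 to 2.48-fold, with the calls kept and with the groups that no array detected included. At 1.3 and 3.6 MBq its change was -2.09 and -2.31 in cortex (adjusted p = 0.182 and 0.123) and -1.92 and -2.08 in medulla (adjusted p = 0.121 and 0.0613), and did not pass. H2-Eb1 was called in medulla at 14 MBq (-2.01 ± 0.50, adjusted p = 0.0357) and 45 MBq (-2.02 ± 0.50, adjusted p = 0.0438), 4.02-fold and 4.07-fold.

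Counted over the 6 genes, 0, 0, 1, 1 and 1 were called lower in cortex at 1.3, 3.6, 14, 45 and 140 MBq, where the share of all genes called lower was 0.130%, 0.130%, 0.833%, 0.389% and 0.204%. In medulla 0, 0, 2, 2 and 1 were called lower, where the share of all genes was 0.193%, 0.589%, 1.94%, 0.892% and 0.460%. None was called higher. The median change of the 6 genes was -0.63, -1.43, -1.85, -2.37 and -0.99 in cortex and -0.99, -1.35, -1.83, -1.97 and -1.16 in medulla, where the median over all genes tested lay between -0.02 and 0.02. At 45 MBq all treated arrays lay below all untreated arrays for 4 of the 6 genes in cortex (9.83% of all genes) and for 6 of 6 in medulla (8.23%). At 14 MBq the same held for 1 gene in cortex (8.40%) and 4 in medulla (13.3%), at 140 MBq for 1 in each tissue (7.68% and 6.81%), at 3.6 MBq for 1 in each (6.78% and 7.95%) and at 1.3 MBq for 0 (9.59% and 7.87%). The changes that came near the threshold were those of H2-Ab1 in medulla (-1.95 ± 0.54, adjusted p = 0.0504 at 14 MBq, and -2.06 ± 0.54, adjusted p = 0.0558 at 45 MBq) and of Cd74 there at 45 MBq (-1.92 ± 0.51, adjusted p = 0.0593). H2-DMa had a change of -1.81 ± 0.55 in medulla at 45 MBq (adjusted p = 0.0848), and H2-Aa, undetected there on all 3 arrays, was at least 2.53-fold lower on the neqc scale but did not pass (adjusted p = 0.0790). That bound uses the mean of all 3 untreated arrays, at 8.38 on replicate 1 and 6.93 and 5.83 on replicates 2 and 3. It was not computed without replicate 1.

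Without untreated replicate 1, 0 of the 6 genes were called in any of the 10 comparisons (limma). The shares of all genes called lower were then 0.0467%, 0.0654%, 0.112%, 0.150% and 0.0934% in cortex and 0.0647%, 0.203%, 0.287%, 0.139% and 0.176% in medulla at 1.3, 3.6, 14, 45 and 140 MBq. At these activities 1, 1, 1, 5 and 1 of the 6 genes had an unadjusted p under 0.05 in cortex. In medulla it was 1, 2, 3, 6 and 1. How many of all genes had such an unadjusted p-value was not counted, so these counts do not set the 6 genes apart. The change of Ciita was then -1.54, -1.76, -2.23 and -2.26 in cortex at 1.3, 3.6, 14 and 140 MBq, with adjusted p over the 5 activities between 0.139 and 0.546, and -1.21, -1.37, -1.83 and -1.68 in medulla at 1.3, 3.6, 45 and 140 MBq, with adjusted p between 0.0844 and 0.356. H2-Eb1 in medulla had a change of -1.40 at 14 MBq (adjusted p = 0.136) and -1.42 at 45 MBq (adjusted p = 0.176). The median change of the 6 genes was -0.06, -0.90, -1.34, -1.87 and -0.42 in cortex, and -0.42, -0.75, -1.25, -1.45 and -0.60 in medulla. The direction of Ciita, H2-Eb1 and H2-DMa stayed downward in all 10 comparisons, whereas H2-Aa (0.58), H2-Ab1 (0.10) and Cd74 (0.31) in cortex at 1.3 MBq, Cd74 in medulla at 1.3 MBq (0.09) and H2-Aa in medulla at 1.3 and 14 MBq (0.08 and 0.07) were above 0. Replicate 1 was not the only array on which the calls rested: Ciita lost its call in cortex without untreated replicate 2 (adjusted p = 0.118, 0.0932 and 0.142 at 14, 45 and 140 MBq) or without any of the 3 treated arrays of the group, and likewise in medulla. The calls were kept without untreated replicate 3, the lowest control, where Ciita changed by -3.38 and -3.41 in cortex at 14 and 140 MBq. Without the 14 MBq array that carried adrenal markers, the change of Ciita was -2.64 in cortex (adjusted p = 0.0638) and its adjusted p in medulla 0.0743, and that of H2-Eb1 in medulla was -1.98 (adjusted p = 0.104).

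**Figure D2:**
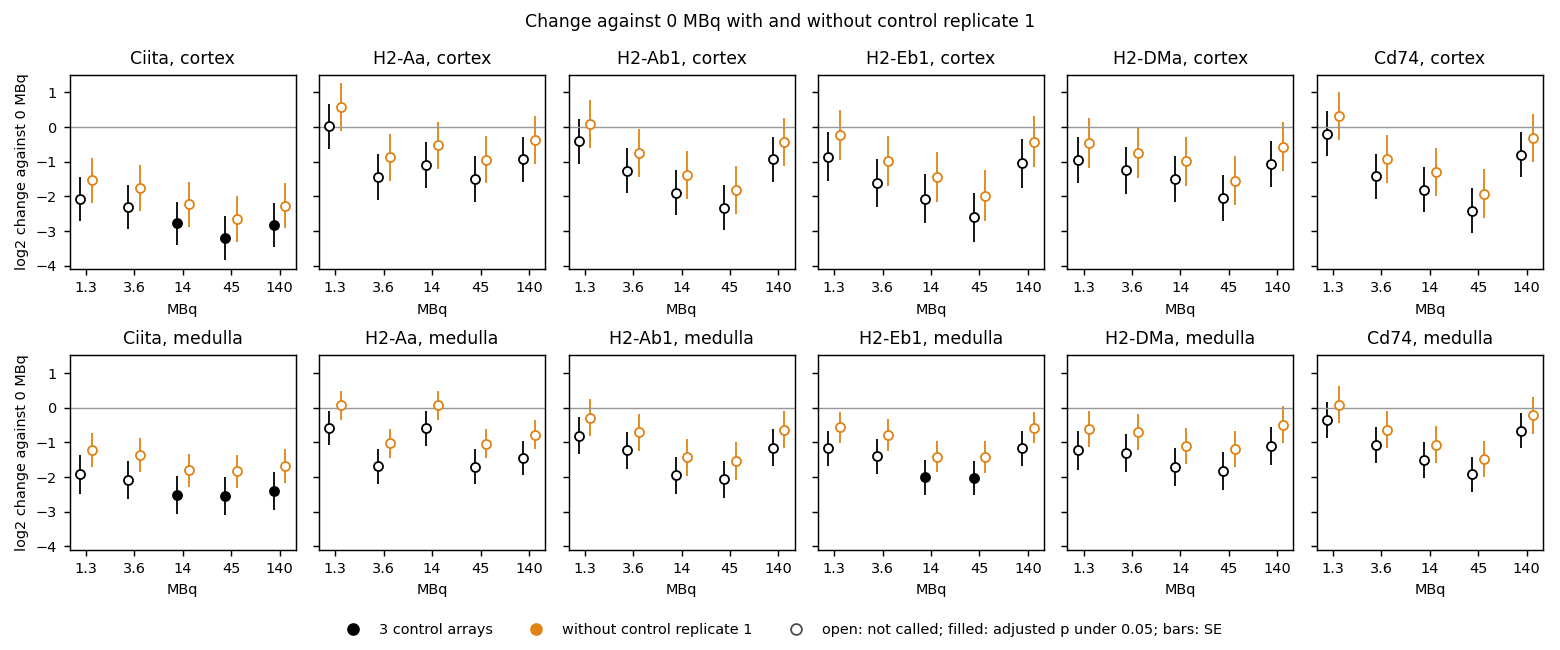
Log2 change of each gene against 0 MBq (vertical axes) by injected activity in MBq (horizontal axes), in cortex (upper row) and medulla (lower row), with all 3 untreated arrays (black) and without untreated replicate 1 (orange). Bars are SE and filled symbols have an adjusted p under 0.05: with all arrays Ciita has 3 filled symbols in each tissue and H2-Eb1 has 2 in medulla, and without replicate 1 none is filled. Where no array of a group detected the gene (Ciita in cortex at 45 MBq and in medulla at 14 MBq, H2-Aa in medulla at 45 MBq), the point is a fitted difference and not a measured one.

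A moderated F test over the 6 activities called 0 of the 6 genes in cortex, where 0.722% of all genes were called (4 of the 6, and 1275 of all 10803 genes, had an unadjusted p under 0.05), and Ciita in medulla (adjusted p = 0.0486), where 5.07% of all genes were called. That call ended without untreated replicate 1 (adjusted p = 0.138), where 0 of the 6 were called in either tissue and 0.514% of all genes in cortex and 3.75% in medulla, with 2 and 4 of the 6 at an unadjusted p under 0.05. Of all genes, 1076 of 10702 in cortex and 2648 of 10819 in medulla had such a p there. Among the 5 injected activities alone, which does not use the level of the controls, 0 of the 6 were called in either tissue by limma, where 0.259% of all genes were called in cortex and 2.93% in medulla. In each tissue 1 of the 6, Cd74, had an unadjusted p under 0.05, as did 750 of 10803 genes in cortex and 2267 of 10869 in medulla. A fit without untreated replicate 1 also called 0 of the 6 (0.280% and 3.43% of all genes). The slope per doubling of activity over the 15 injected arrays was between -0.14 and -0.06 in cortex and between -0.09 and -0.02 in medulla, and 0 of the 6 passed (0.738% and 0.823% of all genes; 0 of the 6 had an unadjusted p under 0.05). Without replicate 1 at 1.3 MBq, the slopes of H2-Eb1 and H2-DMa came to 0.0086 and 0.0080 in cortex and to 0.014 and 0.024 in medulla.

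The order of the group means was alike for Cd74 in both tissues. It ran from 0 MBq (13.51 ± 1.31, SD, n = 3, in cortex) through 1.3 MBq (13.32 ± 1.26), 140 MBq (12.70 ± 0.18), 3.6 MBq (12.09 ± 0.83) and 14 MBq (11.70 ± 0.69) to 45 MBq (11.09 ± 0.52). Ciita in cortex ran from 8.42 ± 1.15 at 0 MBq through 6.34 ± 1.19 at 1.3 MBq, 6.11 ± 0.93 at 3.6 MBq, 5.64 ± 0.79 at 14 MBq and 5.61 ± 0.54 at 140 MBq to 5.22 ± 0.06 at 45 MBq. The highest activity thus did not have the lowest level. Neighbours in such an order overlapped in 59 of the 60 pairs over the 6 genes and both tissues. The groups were sorted by their own means, and this overlap was not counted over all genes. It therefore does not set the 6 genes apart. In a comparison of 140 with 45 MBq, chosen after these values had been seen, H2-Ab1, H2-Eb1, H2-DMa and Cd74 had all 3 arrays at 140 MBq above all 3 at 45 MBq in either tissue. This held for 7.61% of all genes in cortex and 9.20% in medulla. Cd74 was higher by 1.61 ± 0.65 in cortex (adjusted p = 0.999) and 1.26 ± 0.51 in medulla (adjusted p = 0.464), and Ciita by 0.15 ± 0.55 in medulla. No gene of the 6 passed in that comparison (0.0185% of all genes were called higher in cortex and 0% in medulla), although Cd74, H2-Ab1 and H2-Eb1 in cortex and Cd74 in medulla had an unadjusted p under 0.05. The number of all genes with such an unadjusted p was not counted there.

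No difference between cortex and medulla passed for these genes in the fit without a block. At 0 MBq the differences of medulla from cortex lay between -0.40 (Ciita) and 0.21 (H2-Eb1), with SEs of 0.61 to 0.64, and 0 of 6 passed (0.384% of all genes, and none of the 6 at an unadjusted p under 0.05). Over the 5 injected activities the differences lay between -0.17 and 0.30, with SEs of 0.27 to 0.29, and 0 of 6 passed although 22.6% of all genes did. With the activity and replicate number as a block, H2-Eb1 (0.30, adjusted p = 0.0367) and Cd74 (0.24, adjusted p = 0.0338) were called higher in medulla over the injected activities. The share of all genes called with that block is not given here, so these calls do not set the genes apart. The interaction of tissue and activity was called for 0 of 11471 genes by limma, and 186 genes had an unadjusted p under 0.05, none of them among the 6. That fit had no block and took cortex and medulla arrays of one number as independent. It therefore does not show that the change was alike in both tissues. Arrays of cortex and medulla with the same activity and number ranked together in these genes. Over the 18 such pairs Cd74 had a Pearson r of 0.975 (permutation p = 1e-05, the smallest that the permutations can give, adjusted over 6 genes to 1.2e-05) and a Spearman rho of 0.959 (p = 1e-05). Without the 2 pairs farthest from the median r was 0.956. The permutations mixed the activities, so these p-values also reflect level differences between activities that both tissues share. They do not test the pairing by number alone. Ciita had an r of 0.926 (permutation p = 1e-05) and a rho of 0.554 (permutation p = 0.0187, adjusted 0.0224), and r was 0.797 without the 2 farthest pairs. Once group means were removed, r was 0.950 for Cd74 and 0.789 for Ciita, so arrays of one number stood high or low together in both tissues within an activity, a description with no p-value. H2-Aa had an r of 0.750 (permutation p = 0.00061), which was 0.453 without the 2 farthest pairs.

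The 4 probes of H2-Ab1 fell into 2 kinds. Probes ILMN_2607675, ILMN_2631423 and ILMN_2913716 were detected on 36 of 36 arrays and correlated with each other at r = 0.972 to 0.987 over the 36 arrays, a description that holds group differences too. Probe ILMN_1226525 was detected on 22 of 36 arrays and correlated with them at 0.708 to 0.746. It correlated with H2-Aa at 0.902, where the brightest H2-Ab1 probe had 0.734 with H2-Aa. Over the 20 arrays on which H2-Aa and the dim probe were both detected these values were 0.834 and 0.859. The dim probe read 7.95 and 7.40 on replicates 2 and 3 of cortex at 14 MBq, and 6.81 and 7.12 on those of medulla, above its lowest untreated array in each tissue (6.09 and 6.26). On replicate 2 at 3.6 MBq it was not detected in either tissue, where the 3 other probes were above their own means. In a fit of every probe, the dim probe was called in medulla at 3.6 MBq (-2.32 ± 0.54, adjusted p = 0.0408), where 1 of 3 arrays detected it. It was also called there at 45 MBq, where none of its arrays was detected. In the same fit the brightest probe, ILMN_2607675, was called in medulla at 14 MBq (-1.95 ± 0.53, adjusted p = 0.0487), on the other side of the threshold from the fit of 1 probe per gene (adjusted p = 0.0504). These probe calls ended without untreated replicate 1. The limma adjusted p was then 0.145 and 0.0990 for the dim probe at 3.6 and 45 MBq, and 0.191 for the brightest probe at 14 MBq. The 2 probes of Cd74, both detected on 36 arrays, correlated at 0.991.

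**Figure D3:**
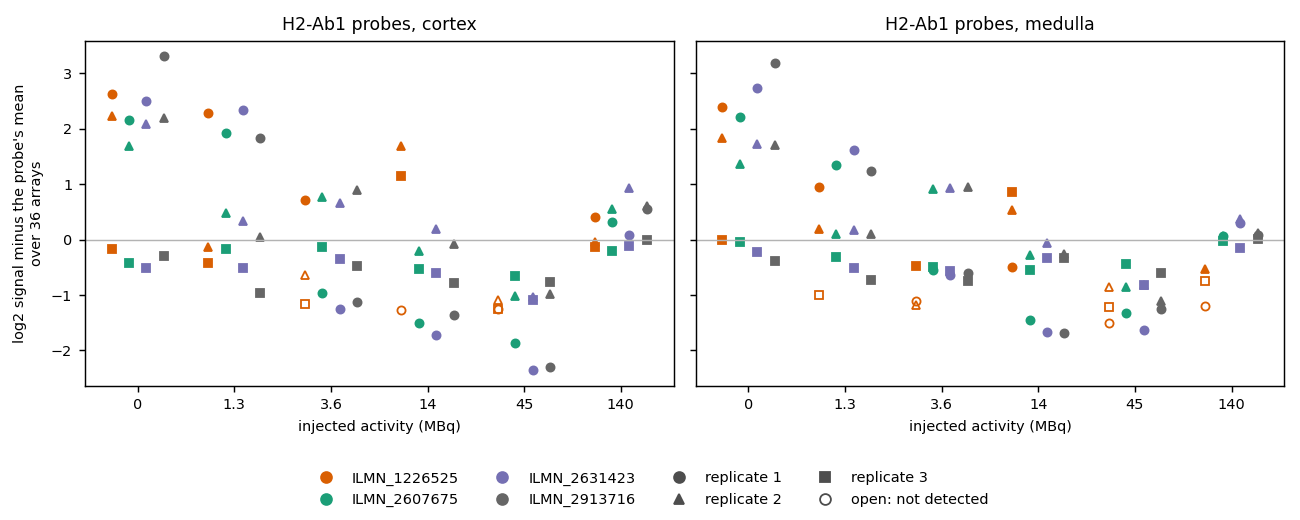
The 4 probes of H2-Ab1 on each array of cortex (left) and medulla (right), as log2 signal minus the probe's own mean over the 36 arrays (vertical axis), by injected activity in MBq (horizontal axis). Symbols mark replicates 1, 2 and 3 and are open where the probe was not detected: the 3 bright probes move together, and ILMN_1226525 stands above them on replicates 2 and 3 at 14 MBq and below them on replicate 2 at 3.6 MBq.

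Ciita and the 5 other genes varied together over the arrays. Over the 36 arrays the Pearson r of Ciita was 0.886 with H2-DMa, 0.853 with H2-Eb1, 0.827 with H2-Ab1, 0.769 with Cd74 and 0.692 with H2-Aa. These points share the groups and, for Ciita, many signals at the detection limit. Without untreated replicate 1 of both tissues, the 34 other arrays gave 0.815, 0.759, 0.752, 0.696 and 0.504. On untreated replicate 3 the mean of the 5 other genes, each centred on its mean over 36 arrays, was -0.48 in cortex and -0.10 in medulla, inside the range of the injected arrays (-1.66 to 1.91 in cortex, -1.06 to 1.21 in medulla). Ciita on the same arrays, at 7.23 and 6.60, ranked the 4th and 5th highest of 18 arrays. For the other genes that array ranked between 7th and 13th. At 140 MBq the mean of the 5 other genes was 0.31, 0.14 and -0.05 in cortex, near the average of all arrays, where Ciita was 5.89, 4.99 and 5.94.

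**Figure D4:**
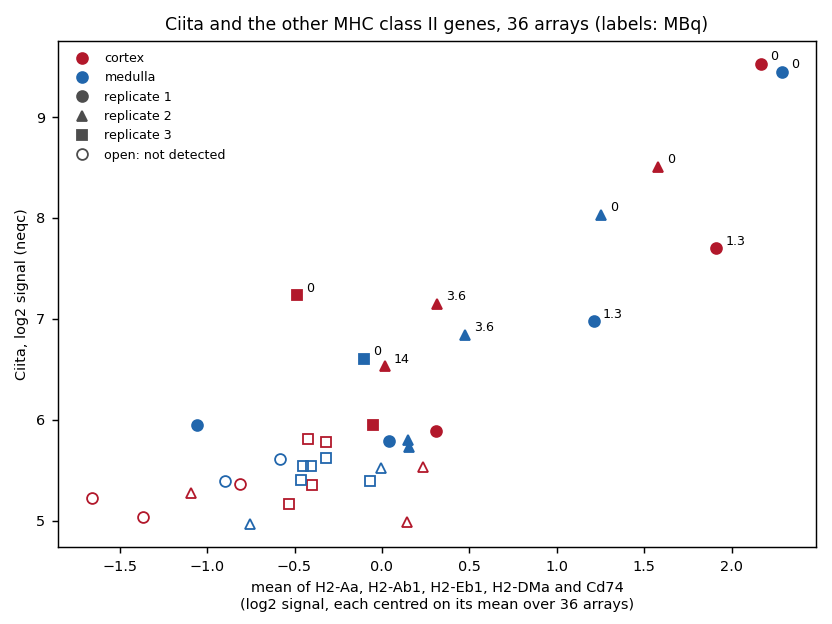
Ciita (log2 signal, vertical axis) against the mean of H2-Aa, H2-Ab1, H2-Eb1, H2-DMa and Cd74 (log2, each centred on its mean over 36 arrays, horizontal axis), 1 point per array, with the activity in MBq written beside untreated arrays and those with Ciita above the rest. Untreated replicates 1 and 2 lie at the upper right, and the untreated replicates 3 (squares labelled 0) lie near the middle of the horizontal axis with Ciita at 7.23 in cortex and 6.60 in medulla.

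Of 10565 genes compared over the 36 arrays, those most like the mean of the 6 genes were H2-Ea, the I-E alpha chain (Pearson r = 0.954), and H2-DMb1, the partner chain of H2-DMa (0.950). Next came the interferon response genes Irf1 (0.935) and Gbp2 (0.935), the MHC class I light chain B2m (0.921), H2-T23 (0.921), Ubd (0.918), H2-DMb2 (0.917), the peptide transporter subunit Tap2 (0.911) and Gbp2b (0.911). Without untreated replicate 1 their r lay between 0.854 and 0.945 over 34 arrays. Those most like Ciita were Tgtp1 (0.922), Psmb10 (0.907), Igtp (0.902), Irf1 (0.900) and Irgm2 (0.898), and without untreated replicate 1 between 0.802 and 0.851.

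Other genes of class II presentation were taken as a list of 16, of which 11 passed the detection filter in either tissue: partner chains, proteases and the RFX and NF-Y subunits. Of the 11, 0 were called lower in cortex at any activity, 2 in medulla at 14 MBq (1.94% of all genes) and 1 at 45 MBq (0.892%), and their median change at 45 MBq was -0.28 in cortex and -0.43 in medulla. H2-Ea fell in medulla (-1.73 ± 0.43, adjusted p = 0.0358 at 14 MBq, and -2.04 ± 0.43, adjusted p = 0.0241 at 45 MBq). The other call at 14 MBq was that of H2-Eb2, which was detected on 8 of 36 arrays and on none at 14 MBq in medulla. Nfyb, a subunit of NF-Y, rose in medulla at 140 MBq (0.60 ± 0.14, adjusted p = 0.0380). Of the other factors that bind with Ciita, Rfxap and Nfyc were detected on 36 arrays, Nfya on 2, and Rfx5 and Rfxank on 1 each.

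The interferon gamma arm, a list of 19 genes from the cytokine and its receptor to induced GTPases and chemokines, had 18 on the array and 15 measured. Ifng itself was detected on 0 of 36 arrays by the brighter of its 2 probes. Of the 15, 1 was called lower in cortex at 45 MBq (0.389% of all genes) and 1, 2 and 2 in medulla at 1.3, 14 and 45 MBq (0.193%, 1.94% and 0.892%), and the median change at 45 MBq was -1.44 in cortex and -1.28 in medulla. Ifi47, an interferon-induced GTPase, fell at 45 MBq, with a change of -2.81 ± 0.61 in cortex (adjusted p = 0.0407) and -3.04 ± 0.60 in medulla (adjusted p = 0.0165). Irf1, an activator of Ciita, fell in medulla (-1.46 ± 0.37, adjusted p = 0.0376 at 14 MBq, and -1.60 ± 0.37, adjusted p = 0.0361 at 45 MBq). The chemokine gene Cxcl10 also fell there (-1.72 ± 0.38, adjusted p = 0.0486 at 1.3 MBq, and -1.61 ± 0.38, adjusted p = 0.0286 at 14 MBq). Of 9 MHC class I genes, 1 was called lower: Tapbp, the tapasin gene, fell by 1.06 ± 0.23 in cortex at 45 MBq (adjusted p = 0.0420), where 0.389% of all genes were called lower. All 9 had a change below 0 there, with a median of -1.51. Without untreated replicate 1, 0 genes of these 3 lists were called, and Ifi47 had a change of -1.95 in cortex (adjusted p = 0.139) and -2.16 in medulla (adjusted p = 0.0521) at 45 MBq. On that array the interferon gamma arm stood at 2.00 in cortex and 1.94 in medulla and the class I genes at 2.33 and 2.34, the highest of 18 arrays in each tissue, where the injected arrays ran from -0.64 to 0.55 and from -0.84 to 1.24.

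Markers of the cells known to carry class II moved in part with these genes. The macrophage list had 10 of 12 genes measured. Its mean centred log2 signal was 1.19, 0.61 and -0.29 on the untreated arrays of cortex, where injected arrays ran from -1.49 to 0.15, and 1.82, 1.43 and 0.41 on those of medulla, where they ran from -0.48 to 0.85. It was thus highest on untreated replicate 1 in both tissues, and at 140 MBq in medulla it stood at 0.85, 0.81 and 0.69. Of the 10, 1 and 2 were called lower in cortex at 14 and 45 MBq (0.833% and 0.389% of all genes) and 4 and 2 in medulla (1.94% and 0.892%). Ly86, expressed on macrophages and B cells, fell at 45 MBq (-2.43 ± 0.49, adjusted p = 0.0285 in cortex, and -2.08 ± 0.46, adjusted p = 0.0285 in medulla). Cx3cr1, the fractalkine receptor of resident macrophages, fell in medulla (-1.33 ± 0.26, adjusted p = 0.0154). Without untreated replicate 1 these were -1.94 (adjusted p = 0.139), -1.40 (adjusted p = 0.0872) and -1.22 (adjusted p = 0.0772), and 0 of the 10 were called.

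Of 6 pan-leukocyte markers, of which Fcer1g was measured in neither tissue, 2 of 4 were called lower in cortex at 14 MBq (0.833% of all genes), and in medulla 4 of 5 at 14 MBq (1.94%) and 2 of 5 at 45 MBq (0.892%). Cd52, a surface glycoprotein of leukocytes, fell at 14 MBq (-2.35 ± 0.49, adjusted p = 0.0306 in cortex, and -1.85 ± 0.39, adjusted p = 0.0196 in medulla). Without untreated replicate 1, 0 of the 4 tested were called against 0 MBq in either tissue, and Cd52 had a change of -1.82 in cortex (adjusted p = 0.144) and -1.36 in medulla (adjusted p = 0.0773) at 14 MBq. The list stood at 1.64, 0.74 and -0.17 on the untreated arrays of cortex and at 1.72, 0.94 and 0.29 on those of medulla, with injected arrays between -0.97 and 0.50. Dendritic cell markers were near the detection limit: Itgax, Clec9a and Cd209a were detected on 0 of 36 arrays, Xcr1 on 1, and 0 of the 2 to 3 that could be tested were called. Their mean ran from -0.19 to 0.46 on the untreated arrays and from -0.46 to 0.58 on the injected ones. Among B cell markers Pax5 and among T cell markers Cd4, Cd8a and Cd2 were detected on 0 of 36 arrays. The B cell mean ran from -0.21 to 0.33 on untreated and from -0.33 to 0.50 on injected arrays, and the T cell mean from -0.16 to 0.70 and from -0.65 to 1.04. Of B cell markers 0 were called, and of T cell markers 1, Cd3g in medulla at 14 MBq (1.94% of all genes), where none of its arrays was detected, a call that ended without untreated replicate 1 (adjusted p = 0.163). Without the 14 MBq array that carried adrenal markers, a fit added after the values were seen, 0 genes of the class II partner, interferon gamma, macrophage, pan-leukocyte and T cell lists were called in medulla at 14 MBq (0.194% of all genes), with H2-Ea at -1.77 (adjusted p = 0.0935), Irf1 at -1.36 (adjusted p = 0.121), Cxcl10 at -1.62 (adjusted p = 0.0909) and Cd52 at -1.72 (adjusted p = 0.0843). In cortex the same fit called Ctss of the class II partners, 4 of 10 macrophage markers and 3 of 4 pan-leukocyte markers lower, where 2.36% of all genes were called lower. These lists were not alone: it also called 5 of 6 endothelial markers lower, among them Pecam1 (-1.77, adjusted p = 0.00117) and Tek (-2.25, adjusted p = 0.0022). Of 2 podocyte markers it called 1 lower, Podxl (-1.59, adjusted p = 0.0303). The part of macrophages, of other leukocytes and of untreated replicate 1 in the lower levels of Ciita and H2-Eb1 was not tested.

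**Figure D5:**
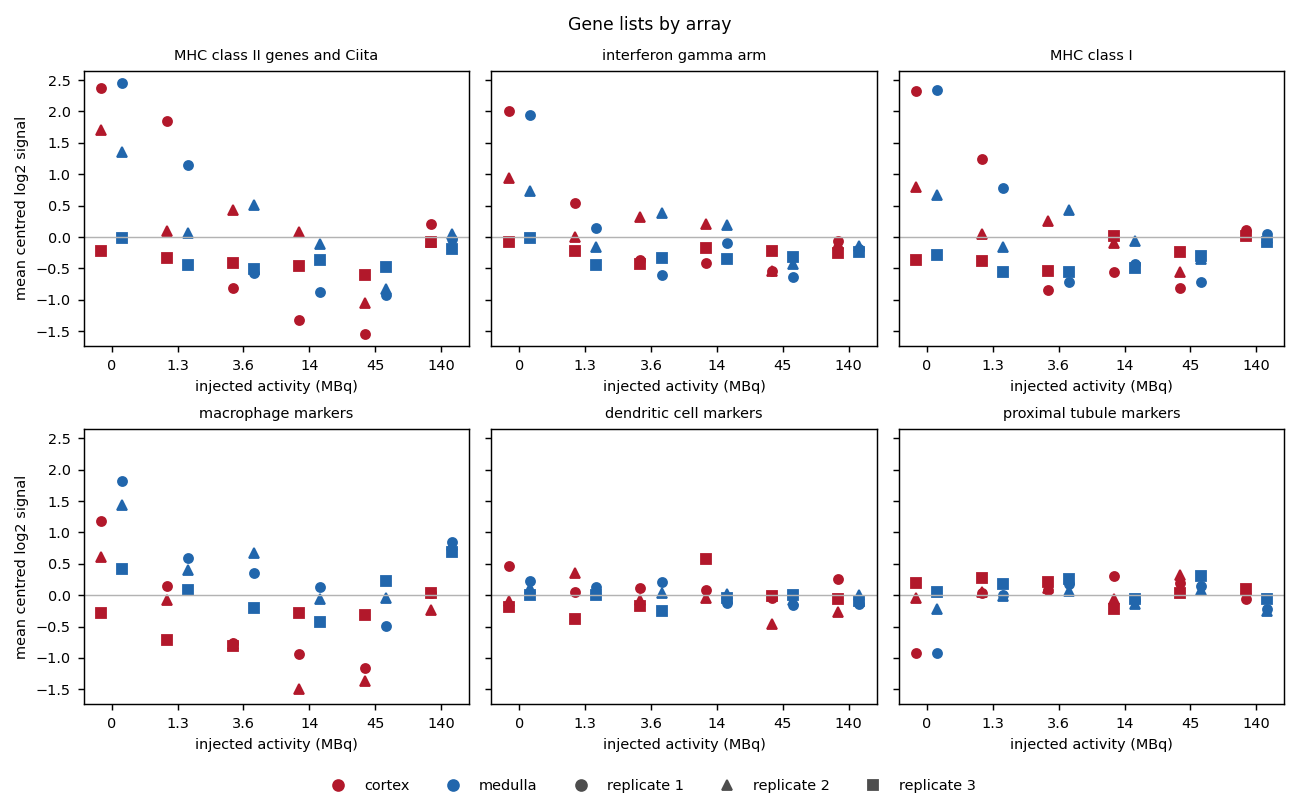
Mean log2 signal of 6 gene lists on each array, each gene centred on its own mean over the 36 arrays (vertical axes), by injected activity in MBq (horizontal axes), with cortex in red, medulla in blue and replicates 1, 2 and 3 as circles, triangles and squares. Untreated replicate 1 is the highest array of each tissue for the class II genes, the interferon gamma arm, MHC class I and macrophage markers and the lowest for proximal tubule markers, and dendritic cell markers stay between -0.46 and 0.58.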

How the data were processed

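Total RNA of 36 samples was hybridised to Illumina mouse bead arrays, per the labels' protocols. The authors deposited a linear signal intensity and a detection p-value for each of 25697 probes, per the file headers, and a normalized intensity for 25690 of them, whose normalization is not stated in the labels or headers. The detection p-value of the authors' scanner software moved in steps of 1 in 798. The 6 genes and all gene lists were chosen with earlier results of these data known.

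The signals were background-corrected with limma's neqc (limma 3.58.1, R 4.3.3, offset 16, negative controls read from the detection p), then quantile-normalized and taken to log2. A gene was read by its brightest probe among those that 3 or more arrays of the fit detected (detection p under 0.05). Each tissue was fitted on its own (18 arrays, 6 groups, lmFit and eBayes, 12 residual degrees of freedom), slopes on the 15 injected arrays, and tissue comparisons on 36 arrays, with Benjamini-Hochberg adjustment over all genes. Lists gave up to 4 genes of smallest p per comparison, and the genes most alike were the 10 and 5 of highest Pearson r. The script was tested on simulated data.

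Samples were grouped by the tissue and activity of their labels. Arrays of cortex and medulla with the same number deviated from their group means together at 0 MBq (r = 0.614 to 0.659, 3 pairs) but not in all 18 pairs (-0.30 to 0.66), and within a tissue numbers did not pair the arrays. The number of arrays limits the precision. The symbols of 23974 probes came from the platform annotation, and 1723 probes had none.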

Additional observations from a re-analysis of the deposited data

How the results depend on the processing

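Calls of Ciita and H2-Eb1 ended in 5 of the 6 fits that left out 1 array, all but the one without untreated replicate 3. Over these fits the number of the 6 genes called ran in cortex from 0 to 1 at 3.6 MBq, 0 to 4 at 14 MBq, 0 to 5 at 45 MBq and 0 to 1 at 140 MBq. In medulla it ran from 0 to 3 at 1.3 MBq, 0 to 6 at 3.6 MBq, 0 to 5 at 14 MBq, 0 to 6 at 45 MBq, 0 to 2 at 140 MBq and 0 to 6 in the test over 6 activities. The share of all genes called changed between fits as well. In medulla at 14 MBq, 1.94% were called lower with all arrays and 0.194% without replicate 3 of that group. Such shares are not given for each fit here, so these counts and those below do not set the 6 genes apart from other genes. With no detection filter, 0 were called in cortex at 14 and 140 MBq, 1 in medulla at 14 and at 45 MBq, and 0 at 140 MBq and over 6 activities. In 1 fit of all 36 arrays, 1 was called in cortex at 3.6 MBq, 4 at 45 MBq and 1 over 6 activities, and in medulla 1 at 14 and at 45 MBq and 0 at 140 MBq and over 6 activities. Without background correction 4 were called in medulla at 45 MBq and 0 over 6 activities, and with the deposited normalization 0 over 6 activities. With every probe tested, 1 was called in medulla at 3.6 MBq and 2 over 6 activities. At an adjusted p under 0.01 with a 1.5-fold change, 0 were called in any comparison that had calls. With the replicate number as a block within a tissue, 0 were called in cortex at 14 MBq (Ciita, adjusted p = 0.0658) and 140 MBq (adjusted p = 0.0673). With the activity and replicate number together as a block, 2 were higher in medulla than in cortex over the injected activities (H2-Eb1, adjusted p = 0.0367, and Cd74, adjusted p = 0.0338). These numbers pair the arrays in no design the labels state. The change of H2-Aa in cortex at 1.3 MBq was -0.0019 under the deposited normalization and -0.00083 without background correction. The causes were not tested.

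With 1 array left out, these changes crossed 0. In cortex at 1.3 MBq they ran from -0.75 to 0.58 for H2-Aa, -1.19 to 0.10 for H2-Ab1 and -0.93 to 0.43 for Cd74. In medulla they ran from -1.20 to 0.078 (H2-Aa) and -0.95 to 0.094 (Cd74) at 1.3 MBq, and from -1.20 to 0.072 (H2-Aa) at 14 MBq. Medulla against cortex at 0 MBq ran from -1.11 to 0.32 for Ciita, -0.64 to 0.73 for H2-Aa, -0.75 to 0.64 for H2-Ab1, -0.62 to 0.85 for H2-Eb1, -0.91 to 0.62 for H2-DMa and -0.72 to 0.62 for Cd74. Over the injected activities it ran from -0.13 to 0.091 (Ciita), -0.18 to 0.054 (H2-Aa) and -0.14 to 0.077 (H2-Ab1). Slopes ran in cortex from -0.13 to 0.0086 (H2-Eb1) and -0.094 to 0.0080 (H2-DMa), and in medulla from -0.065 to 0.014 and -0.049 to 0.024. Counted over single genes and settings other than leaving out a single array of one tissue, direction and side of the threshold were kept 630 times, a call was gained 14 times, and it was lost 18 times, each time by Ciita or H2-Eb1. Ciita and H2-Aa, often undetected, have the least signal over background.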
